A study of Mus musculus with 8 samples.

Results

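The nuclei described here are those that the authors labelled CB (ciliary body) and CBE (ciliary body epithelium) in the 3 libraries from untreated mice. They were chosen by that deposited label alone, and number 346 CB and 373 CBE nuclei of 14365 untreated nuclei and of 34357 nuclei in the series. The 2 labels were compared within each library over all genes, to see which nuclei carried the genes of the pigmented and which the genes of the nonpigmented layer of the ciliary epithelium.

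Each library was single nucleus RNA-seq of a separate pool of 5 or 6 irises, with the ciliary body that was cut out with them, from wild type female albino mice of 6 to 8 weeks. No drug was given to the mice of the 3 untreated libraries. In 3 constricted libraries the eyes had received pilocarpine (5%) every hour over 6.5 hours, and in 2 dilated libraries phenylephrine (5%) with cyclopentolate (1%) on the same schedule, the former mice in the light and the latter in the dark. The labels came from a joint clustering of these same counts over all 8 libraries. A gene difference between CB and CBE is therefore given as a size with its error and carries no p-value.

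The ciliary epithelium is a double layer that makes the aqueous humor. Its outer layer is pigmented and takes up salt and bicarbonate from the stroma, its inner layer is nonpigmented and releases them into the eye, and gap junctions join the 2 layers. The inner layer also makes zonule fibers and part of the vitreous. The pigmented layer runs on into the anterior epithelium of the iris, which forms the dilator muscle, and the nonpigmented layer into the posterior iris pigment epithelium. In albino mice both layers lack melanin, so that pigment itself cannot tell them apart.

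The summed counts of unique molecular identifiers (UMIs) were 346175, 505243 and 296251 for the 89, 163 and 94 CB nuclei of untreated libraries 1, 2 and 3. They were 281000, 528938 and 480831 for the 79, 158 and 136 CBE nuclei. Levels are UMIs scaled to a sum of 1000000 (CPM), in the order of the libraries or as mean ± SD (n = 3 libraries). CB and CBE together made up 2.86% to 14.9% of the nuclei of the 8 libraries. Pairs of libraries shared 0 to 18 cell barcodes, except that untreated library 1 shared 63 with dilated library 1. In untreated library 1, 22 of 89 CB and 8 of 79 CBE nuclei had a barcode found in another library. Of these CB nuclei, 21 were among the 63 and all 21 had the CB label in both libraries, with a median of 5235 UMIs in the untreated and 962 in the dilated library. Counts without shared barcodes or without that library are given where the count of a list changed. Some list members had too few counts for a fit there and are not named.

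Of 22873 genes, 7856 had counts enough for a fit paired by library. A gene was counted as higher in one label when the fitted log2 difference exceeded 1 and the 3 libraries of CB and of CBE did not overlap in CPM. Overlap was judged across libraries and not within pairs, so a gene with a large fitted difference can fail it. By this rule 552 genes (7.03% of those tested) were higher in CB and 893 (11.4%) were higher in CBE. Fitted differences are CB minus CBE on the log2 scale, ± standard error. The median over all tested genes was 0.03. Without the shared barcodes the counts were 504 and 848, and without untreated library 1 they were 586 and 1015. Of the counted genes, 75 of those higher in CB and 254 of those higher in CBE differed more than 10-fold in mean CPM. Of the former 3, and of the latter 33, had 0 UMIs in the other label.

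**Figure D1:**
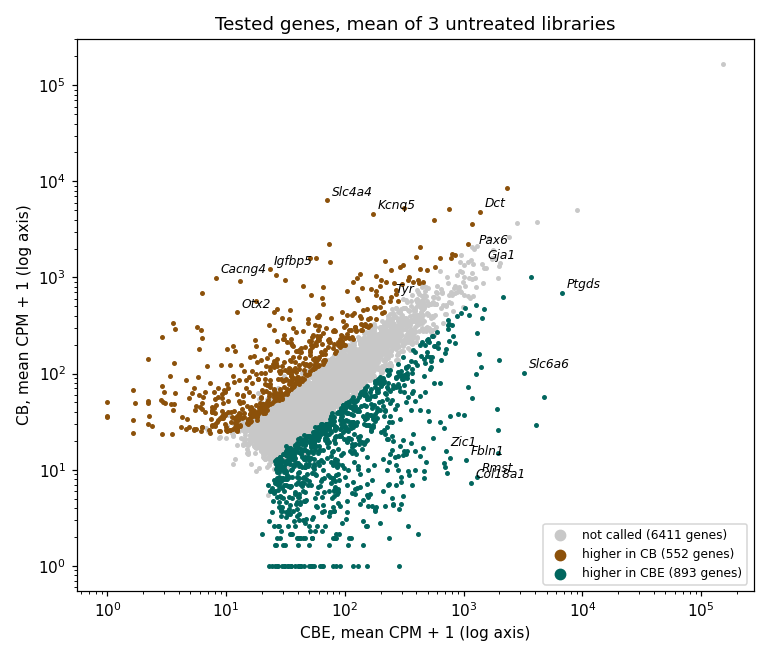
Mean level of each tested gene in CBE (horizontal) and CB (vertical), as CPM + 1 on log axes, over the 3 untreated libraries. Brown points are the 552 genes counted as higher in CB, green points the 893 counted as higher in CBE and grey points the 6411 others; more green than brown points lie over 10-fold from the diagonal (254 against 75).

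Both labels carried transcription factors of the neural ectoderm that lines the inner eye. *Pax6*, the eye field transcription factor, was at 2579.6, 1572 and 1843 CPM in CB and 1142, 1204 and 1296 CPM in CBE, without overlap but with a difference under the threshold (0.73 ± 0.12). *Meis1*, a homeobox factor of the same tissue, was at 522 ± 23.6 CPM in CB and 708 ± 23.7 CPM in CBE, and its relative *Meis2* was counted as higher in CB, at 882 ± 80.9 CPM in CB and 419.9 ± 43.2 CPM in CBE (1.11 ± 0.13). *Tbx20*, a T-box factor, was higher in CBE, at 14.4, 13.9 and 10.1 CPM in CB and 676, 355 and 264 CPM in CBE (-4.95 ± 0.26). Of this list of factors known from both layers, 4 of 5 were tested, and 1 was higher in CB and 1 in CBE, beside 7.03% and 11.4% of all tested genes. *Six3* and *Lhx2*, factors of the early optic cup that belong to the nonpigmented list below, had fitted differences of -0.10 ± 0.21 and -0.22 ± 0.31. *Gja1*, the connexin of the gap junctions between the layers, was at 1375, 1362 and 1438 CPM in CB and 1519.6, 1331 and 1468 CPM in CBE. All 3 CB libraries lay within the range of the CBE libraries.

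Markers of the muscles, stroma, vessels and blood cells were at a small share of their level in their own cell types. The 9 smooth muscle genes summed to 833 to 913 CPM in CB and 790 to 932 CPM in CBE, against 11389 to 11494 CPM in the dilator. Of these, 4 were tested and 0 were counted in either direction. *Myh11* was counted as higher in CBE without untreated library 1 (-1.29). *Mylk*, a kinase found in many cell types, made up most of that sum, at 684 CPM in CB. The 8 genes of stroma 2 summed to at most 125 CPM in CB and 137 CPM in CBE, against at least 6626 CPM in their own type. The 8 genes of stroma 1 summed to at most 57.8 CPM in CB and 37.8 CPM in CBE, against at least 4075 CPM. The 6 endothelial genes reached 69.3 CPM in CB and 96.1 CPM in CBE, and the 5 leukocyte genes in the files 49.1 and 39.1 CPM. The 5 dilator genes stood apart, with 371 to 454 CPM in CB and 123 to 164 CPM in CBE, against 2553 to 2671 CPM in the dilator.

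Marker genes that were counted were *Cit*, a kinase of dividing cells and neurons (225, 199.9 and 216 CPM in CB and 35.6, 37.8 and 20.8 CPM in CBE, 2.79 ± 0.24), and *Sv2b*, a synaptic vesicle protein (1.62 ± 0.27), of the dilator list in CB. In CBE they were *Col1a1* (-1.41 ± 0.48) and *Col1a2* (-1.48 ± 0.52) of stroma 2, and *Cdh5*, the cadherin of vessels, with 0 UMIs in CB and 31 in CBE. The tested members of the sphincter list (2 of 5), the leukocyte list (1 of 5) and the list of retina and lens genes (1 of 7) were not counted, except *Ctnna3* of the sphincter list in CBE without untreated library 1 (-1.11) or 2 (-1.45). Over all 8 libraries *Sv2b*, *Col1a1* and *Col1a2* were not counted, and 0 of 8 stroma 1 genes were tested. With shared barcodes left out, 1 of 2 tested stroma 2 genes was higher in CBE. The study uses the name ciliary body for cells outside the epithelium. By these lists the CB nuclei carried factors of the neural ectoderm of the inner eye. They held the defining markers of stroma, muscle and vessels only at the levels above. Dilator nuclei carried *Pax6*, *Meis1* and *Meis2* too. With each nucleus thinned to 1000 UMIs, *Pax6* had a UMI in 79.5% of CB and 77.6% of dilator nuclei. The shares were 38.3% and 37.9% for *Meis1* and 59.9% and 62.6% for *Meis2*. These factors thus do not set CB nuclei apart from dilator nuclei. The CB nuclei are therefore called CB here and are given no other cell type name.

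*Otx2*, a homeobox factor of the retinal pigment epithelium (chr14:48657677-48673819, GRCm38), was at 514, 331 and 456 CPM in CB and 14.2, 9.45 and 10.4 CPM in CBE (5.27 ± 0.26). All CB libraries lay far above all CBE libraries. In nuclei of stroma 2, a type that should lack it, *Otx2* had a UMI in 2.11% of nuclei, close to the 2.95% of CBE nuclei and below the 63.0% of CB nuclei. Median UMIs per nucleus were 2381 to 2999 in stroma 2, 2953 to 3608 in CB and 3155 to 3710 in CBE. With each nucleus thinned to 1000 UMIs, the shares were 31.0% in CB and 1.08% in CBE. Of the other factors known from pigmented layers, *Mitf* was at 552, 703 and 682 CPM in CB and 352, 580.4 and 497 CPM in CBE, *Otx1* was higher in CBE (187 ± 63.3 CPM in CBE and 62.9 ± 9.51 CPM in CB, -1.52 ± 0.21), and *Tfec*, a relative of *Mitf*, had 1 UMI in CB and 90 in CBE. Thus 1 of the 4 tested of 5 genes of that list was counted in CB and 2 in CBE. Of all tested genes, 7.03% and 11.4% were. The median of the 4 was -0.52.

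*Zic1* (chr9:91358058-91365810), a zinc finger factor, was at 17.3, 19.8 and 6.75 CPM in CB and 523, 766 and 826 CPM in CBE (-5.43 ± 0.24). Its neighbor *Zic4* was at 5.78, 9.90 and 16.9 CPM in CB and 480.4, 760.0 and 788 CPM in CBE (-5.94 ± 0.25), and *Zic2* had 0 UMIs in CB and 195 in CBE, at least 57.8-fold higher. *Six6* had 0 UMIs in CB and 33 in CBE, at least 9.78-fold higher. Such folds, here and below, set the label without UMIs to 3 counts. They take the count of the other label as exact, without its counting error. *Rax*, an early eye field factor, was at 59.2 ± 13.3 CPM in CB and 83.1 ± 8.39 CPM in CBE and was not counted. *Six3* and *Lhx2*, given above, were not counted either. The study itself gives *Zic1* as a marker of CBE and iris pigment epithelium from these same data. Its difference is therefore not independent of the label. Of the 8 tested of 9 factors of the nonpigmented list in the files, 0 were higher in CB and 5 in CBE. Of all tested genes, 7.03% and 11.4% were. The median difference was -5.69, or -4.36 with the 2 genes at 0 UMIs in CB set to their bound of 3 counts in the pooled UMIs. Without untreated library 1, and likewise with shared barcodes left out, 4 of 7 tested factors were higher in CBE.

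The factors were also counted per nucleus. Of 346 CB nuclei, 202 had UMIs of *Otx2* alone, 11 of *Zic1* or *Zic4* alone, 16 of both and 117 of neither. Of 373 CBE nuclei, 1 had *Otx2* alone, 326 had *Zic1* or *Zic4* alone, 10 had both and 36 had neither. The share with both was 4.62% in CB (95% exact binomial interval 2.67% to 7.40%) and 2.68% in CBE (1.29% to 4.88%), where the intervals cover counting error only. In libraries 1, 2 and 3 it was 6.74%, 3.07% and 5.32% in CB and 5.06%, 1.90% and 2.21% in CBE. Since few CB nuclei had *Zic1* or *Zic4* and few CBE nuclei had *Otx2*, a low share with both does not show that the factors exclude each other within a nucleus. *Zic1* alone had a UMI in 4.91% of CB and 2.99% of stroma 2 nuclei.

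Transport genes known from the pigmented layer were higher in CB for 3 of 8, beside 7.03% of all tested genes. *Slc4a4*, the sodium bicarbonate cotransporter NBCe1 (chr5:88886818-89239653), was at 6173, 6045 and 6795 CPM in CB and 78.3, 34.0 and 97.7 CPM in CBE (6.60 ± 0.17). It had a UMI in 100% of CB nuclei, in 11.3% of CBE nuclei and in 14.0% of stroma 2 nuclei, so its level in CBE lay among those of the other types (lowest 50.4 CPM). The 3 libraries of each label were separated by a wide gap. The sodium pump beta subunit gene *Atp1b1* was at 104, 79.2 and 87.8 CPM in CB and 14.2, 17.0 and 12.5 CPM in CBE (2.60 ± 0.32). *Slc4a2*, the anion exchanger AE2, was at 43.3 ± 6.70 CPM in CB and 29.7 ± 4.12 CPM in CBE and was not counted. *Slc12a2*, the sodium potassium chloride cotransporter, was at 14.4, 15.8 and 13.5 CPM in CB and 32.0, 24.6 and 35.4 CPM in CBE, without overlap and just under the threshold (-0.96 ± 0.45). It was counted as higher in CBE with shared barcodes left out (-1.25), without untreated library 2 (-1.21) and in a DESeq2 fit (-1.02). *Slc2a1*, the glucose transporter of blood barriers, was at 497, 875 and 830.4 CPM in CB and 288, 522 and 391 CPM in CBE, where the lowest CB library lay below the highest CBE library, with a fitted difference of 0.92 ± 0.14. *Slc23a2*, a vitamin C transporter, was also not counted (0.58 ± 0.19). Of the 8 genes of this list, all tested, 0 were thus higher in CBE in the fit used here and 1 with shared barcodes left out. The median difference was 0.75. Over all 8 libraries, 2 of 8 were higher in CB and 0 in CBE.

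Products known from the nonpigmented layer were higher in CBE for 8 of 10 tested, beside 11.4% of all tested genes. *Atp1b3*, another beta subunit of the pump, was at 142, 143 and 128 CPM in CB and 623, 605 and 705 CPM in CBE (-2.17 ± 0.16). Of the beta subunits, *Atp1b1* was thus higher in CB and *Atp1b3* in CBE. *Best2*, an anion channel known from the nonpigmented layer, was at 14.4, 7.92 and 3.38 CPM in CB and 413, 321 and 279 CPM in CBE (-5.19 ± 0.29). *Aqp1* was at 2.89, 23.8 and 10.1 CPM in CB and 28.5, 43.5 and 35.4 CPM in CBE and *Aqp4* at 0, 5.94 and 0 CPM in CB and 35.6, 43.5 and 49.9 CPM in CBE, both without overlap. With shared barcodes left out, *Aqp1* was no longer counted (-1.19). *Gpx3*, a secreted glutathione peroxidase, was at 324 ± 20.2 CPM in CBE and 13.5 ± 7.20 CPM in CB. *Optc*, the vitreous proteoglycan opticin, had 3 UMIs in CB and 363 in CBE, a ratio of 108-fold (95% exact counting interval 36.5 to 524). *Col18a1* (chr10:77052178-77166548), which encodes the collagen that releases endostatin, was at 5.78, 9.90 and 3.38 CPM in CB and 1078, 1095 and 1285 CPM in CBE (-7.25 ± 0.25). Of the 10 tested of 12 genes of this list, 8 were higher in CBE and 0 in CB, with a median of -4.26, and *Atp1b2* (-0.17 ± 0.40) and *Opcml* (-1.56 ± 0.43) were not counted. Without untreated library 1, 9 of 10 tested products were higher in CBE, and with shared barcodes left out 7 of 10. Over both lists of the nonpigmented layer, 13 of 18 tested genes were higher in CBE, 11 with shared barcodes left out and 13 without untreated library 1. The medians were -4.92, -4.63 and -4.82. With the 2 genes at 0 UMIs in CB set to their bound, the first of these was -4.26. Over all 21 genes of both lists in the files, the mean was higher in CBE for 19 and in CB for 2.

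**Figure D2:**
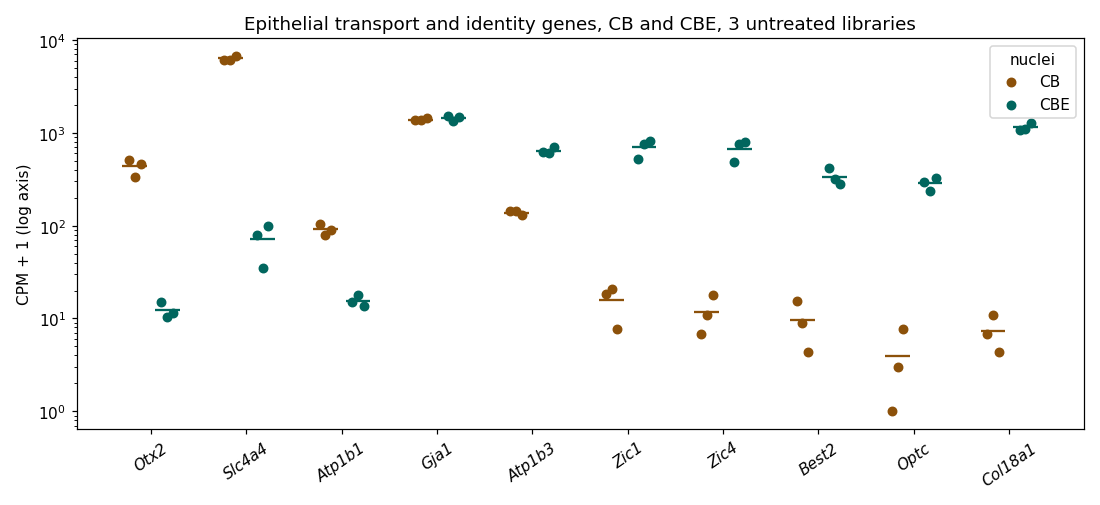
Levels of transport and identity genes in each untreated library, as CPM + 1 on a log axis, with CB in brown, CBE in green and a bar at each mean. *Otx2*, *Slc4a4* and *Atp1b1* lie higher in CB, *Gja1* is level, and the 3 points of the other genes lie higher in CBE without overlap.

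Genes of melanin synthesis and melanosomes were transcribed in these albino eyes. Of the 14 tested, 6 were higher in CB, beside 7.03% of all tested genes. *Tyr*, tyrosinase, was at 601, 730.3 and 537 CPM in CB and 174, 255 and 304 CPM in CBE (1.39 ± 0.16), and *Dct*, dopachrome tautomerase, at 6624, 4406 and 3477 CPM in CB and 1580.1, 1518 and 1002 CPM in CBE (1.84 ± 0.11). The lowest CB library of each lay above the highest CBE library. *Oca2* (853 ± 305 CPM in CB and 304 ± 62.0 CPM in CBE, 1.48 ± 0.14) and *Slc24a5* (279.9 ± 48.1 CPM in CB and 113 ± 17.4 CPM in CBE, 1.35 ± 0.18), ion carriers of the melanosome membrane, were also counted, as were *Rab27a* (225 ± 128 CPM in CB and 58.2 ± 19.8 CPM in CBE), a melanosome transport GTPase, and *Gpnmb* (893 ± 391 CPM in CB and 221 ± 27.3 CPM in CBE), a melanosome glycoprotein. The libraries of *Gpnmb* were spread widely, at 1291, 877 and 509.7 CPM in CB and 249, 195 and 218 CPM in CBE.

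Most other members differed less. *Tyrp1* was at 390.0, 331 and 287 CPM in CB and 370.1, 501 and 458 CPM in CBE (-0.37 ± 0.15), *Pmel*, the melanosome fibril protein, at 121 ± 34.1 CPM in CB and 92.1 ± 21.6 CPM in CBE, and *Mlana* at 178 ± 50.6 CPM in CB and 123 ± 29.4 CPM in CBE. *Mlph*, *Trpm1* and the copper pump gene *Atp7a* had differences of 0.42 ± 0.18, 0.23 ± 0.12 and 0.21 ± 0.21. *Rab38*, a GTPase that brings enzymes to melanosomes, was the exception, at 28.9, 55.4 and 101 CPM in CB and 192, 446 and 470.0 CPM in CBE (-2.59 ± 0.20). *Slc45a2* and *Gpr143* had too few counts for the fit, with 7 and 20 UMIs in CB and 7 and 8 in CBE. Thus 6 of 14 tested members were higher in CB and 1 in CBE, beside 7.03% and 11.4% of all tested genes. The median of the 14 was 0.53. The counts were the same with shared barcodes left out and without untreated library 1, with medians of 0.54 and 0.44. Over all 8 libraries *Gpnmb* was not counted (2.00, with overlap). Of all 16 members, the mean was higher in CB for 14. Summed over the 16, the libraries ranged from 8111 to 14160.5 CPM in CB and from 4706 to 5705 CPM in CBE, without overlap.

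In sum, the pigment genes were lower in CB and CBE than in both iris epithelia. The sum was 10758 ± 3094 CPM in CB and 5273 ± 513 CPM in CBE, against 18761 ± 627 CPM in iris pigment epithelium and 16744 ± 687 CPM in the dilator. For 14 of the 16 genes CBE had the lowest mean of these 4 types, and for the other 2 it was CB. CB or CBE had the highest mean for 0 of the 16. *Tyr*, for example, was at 1959 ± 132 CPM in iris pigment epithelium and 1214 ± 61.1 CPM in the dilator. Of the other types, stroma 1 had the most *Dct*, at 20924 CPM, and the lowest level of any other type was 404 CPM.

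**Figure D3:**
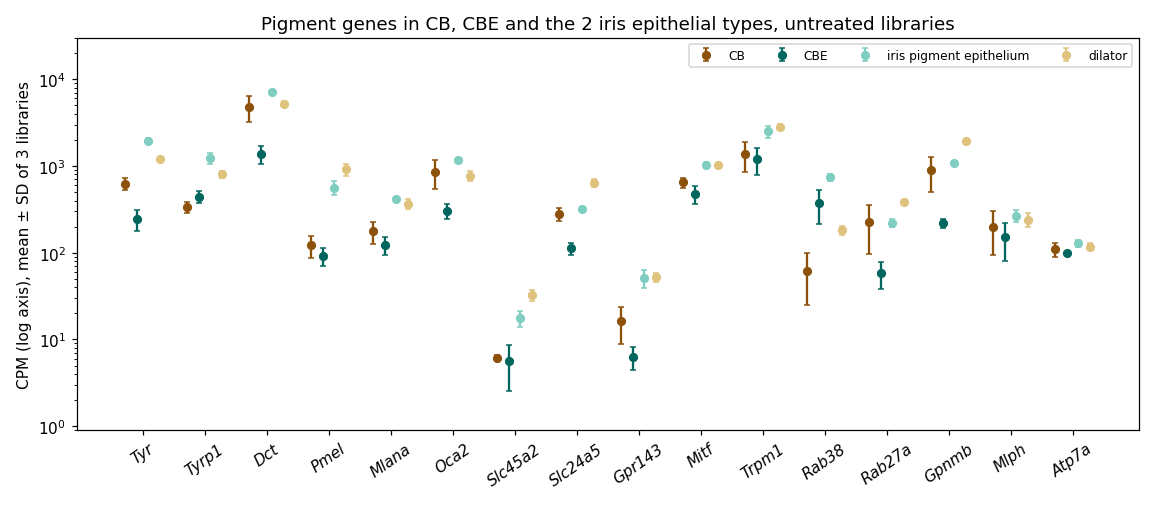
Levels of the 16 pigment genes in CB, CBE, iris pigment epithelium and dilator of the untreated libraries, as mean CPM ± SD (n = 3) on a log axis. CBE is the lowest of the 4 types for 14 genes, while *Rab38* is lower in CB than in CBE.

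The promoters of 4 pigment genes counted as higher in CB are shown with the core letters of the M-box, a motif known to be bound by MITF, in capitals (CATGTG, read as CACATG on the other strand). They are RefSeq sequences of GRCm38.p6, which is mm10, from 250 bases before to 50 bases after the start of transcription, read along the gene. The window of *Tyr* lies at chr7:87493463-87493762 on the minus strand and that of *Dct* at chr14:118052197-118052496 on the minus strand, and those of *Oca2* at chr7:56239509-56239808 and *Slc24a5* at chr2:125067877-125068176 on the plus strand.
Tyr: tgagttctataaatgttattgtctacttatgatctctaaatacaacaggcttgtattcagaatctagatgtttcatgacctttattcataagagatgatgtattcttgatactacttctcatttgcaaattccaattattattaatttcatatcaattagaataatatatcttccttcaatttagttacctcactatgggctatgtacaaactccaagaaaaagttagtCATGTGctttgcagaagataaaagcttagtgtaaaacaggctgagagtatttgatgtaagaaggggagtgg
Dct: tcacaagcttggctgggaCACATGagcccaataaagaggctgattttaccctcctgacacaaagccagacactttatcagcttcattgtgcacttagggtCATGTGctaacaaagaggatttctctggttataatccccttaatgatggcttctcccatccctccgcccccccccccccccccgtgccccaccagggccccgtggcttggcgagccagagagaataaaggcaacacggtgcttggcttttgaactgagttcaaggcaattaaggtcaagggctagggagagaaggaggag
Oca2: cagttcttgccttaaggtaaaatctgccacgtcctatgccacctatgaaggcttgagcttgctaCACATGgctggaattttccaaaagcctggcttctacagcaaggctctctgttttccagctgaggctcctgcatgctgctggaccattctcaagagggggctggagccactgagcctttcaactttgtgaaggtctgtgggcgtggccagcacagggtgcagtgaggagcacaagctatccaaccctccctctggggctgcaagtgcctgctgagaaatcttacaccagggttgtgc
Slc24a5: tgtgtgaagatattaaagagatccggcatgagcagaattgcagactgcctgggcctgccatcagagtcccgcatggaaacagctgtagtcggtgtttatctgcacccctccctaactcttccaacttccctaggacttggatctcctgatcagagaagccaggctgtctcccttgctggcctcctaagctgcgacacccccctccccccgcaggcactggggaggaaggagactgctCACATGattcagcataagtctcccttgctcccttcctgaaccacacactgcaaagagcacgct
Counted from the start of transcription, the motif begins at base -21 in *Tyr*, at -232 and -150 in *Dct*, at -186 in *Oca2* and at -13 in *Slc24a5*. It was present in 14.2% of 32851 promoters of the table, and in a promoter of 15.9% of its 27025 genes. Of the 11 pigment genes in the table, 6 had it, namely 4 of the 6 counted as higher in CB and 2 of the 5 others (*Tyrp1* and *Trpm1*). A match of 6 letters is a description of the sequence and not a site.

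Of the genes of the zonule and of elastic fibers, 13 of 16 tested were higher in CBE, beside 11.4% of all tested genes. *Fbn1*, fibrillin 1, was at 176, 139 and 138 CPM in CB and 559, 306 and 453 CPM in CBE (-1.45 ± 0.17), and *Fbn2* at 17.3, 15.8 and 6.75 CPM in CB and 331, 272 and 318 CPM in CBE (-4.37 ± 0.27). The gap was thus wider for *Fbn2*. *Fbln1*, fibulin 1, was at 1051 ± 366 CPM in CBE and 11.7 ± 1.80 CPM in CB (-6.41 ± 0.23). The microfibril genes *Mfap2* (-3.42 ± 0.35) and *Mfap4* (-4.01 ± 0.22), the latent TGF-beta binding protein gene *Ltbp1* (-1.11 ± 0.15), the cross-linking enzyme gene *Loxl1* (-1.96 ± 0.22), *Adamts10* (-1.86 ± 0.25), *Adamtsl1* (-4.33 ± 0.21), *Fbln5* (-1.32 ± 0.31) and the elastin gene *Eln* (-3.82 ± 0.43) had the same direction. *Ltbp2*, a gene whose loss loosens the zonule, had 1 UMI in CB and 92 in CBE, and *Fbln2* had 0 and 42. The list has 23 genes, of which the mean was higher in CBE for 18 and in CB for 5, and the median of the 16 was -2.69. Over all 8 libraries 12 were higher in CBE, and *Ltbp1* (-0.76) and *Fbln5* (-0.73) were not. The 1 member higher in CB was *Thsd4*, whose product promotes fibrillin assembly, at 997, 863 and 881 CPM in CB and 14.2, 5.67 and 16.6 CPM in CBE (6.28 ± 0.23). *Efemp1* (-0.50 ± 0.22) and *Ltbp3* (-0.98 ± 0.24) were not counted, the latter without overlap. *Ltbp3* was counted as higher in CBE with shared barcodes left out (-1.04) and without untreated library 1 (-1.23).

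In the untreated libraries all 7 vitreous matrix genes tested of 15 were higher in CBE, with a median of -5.10, beside 11.4% of all tested genes. Genes could pass the filter through their counts in 1 label alone. Over all 15, the mean was higher in CBE for 11 and in CB for 4. Over all 8 libraries 5 of 7 tested genes were higher in CBE, since *Col9a3* and *Vcan* overlapped between the labels. *Optc* and *Col18a1*, given above, are among them. *Col9a2*, a chain of the collagen IX of vitreous fibrils, was at 0, 1.98 and 3.38 CPM in CB and 99.6, 87.0 and 93.6 CPM in CBE, and *Col11a1* at 8.67, 9.90 and 3.38 CPM in CB and 281, 255 and 345 CPM in CBE (-5.10 ± 0.31). *Col9a1* and *Col9a3* had 2 and 3 UMIs in CB and 64 and 53 in CBE. *Vcan*, versican, differed least, at 79.7 ± 28.0 CPM in CB and 192 ± 61.8 CPM in CBE (-1.22 ± 0.20). *Col2a1*, the main vitreous collagen, had 0 UMIs in CB and 17 in CBE, too few for the fit. The other 7 members not fitted had at most 23 UMIs in either label.

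**Figure D4:**
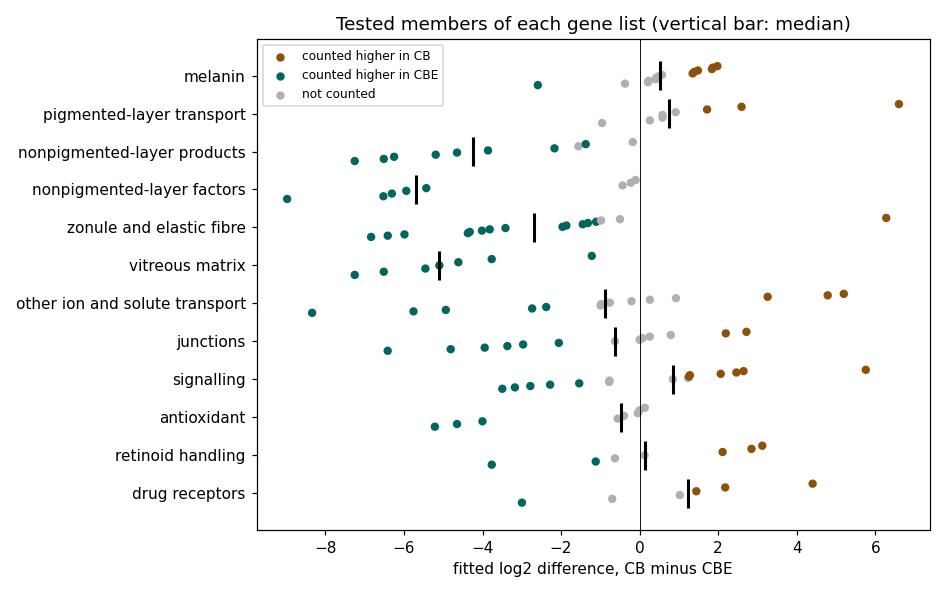
Fitted log2 difference (CB minus CBE) of each tested member of 12 gene lists, with brown for genes counted as higher in CB, green for those counted as higher in CBE, grey for the others and a bar at the median. All 7 vitreous genes, and the 16 zonule genes except *Thsd4*, lie on the CBE side, and pigment genes lie on the CB side except *Rab38* and *Tyrp1*. The fitted values of genes with 0 UMIs in CB are no bound.

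Other carriers and channels differed in both directions, more of them toward CBE. *Kcnq5*, a voltage-gated potassium channel, was at 5203, 5225 and 3423 CPM in CB and 206, 134 and 175 CPM in CBE (4.79 ± 0.15), *Ano1*, a calcium-activated chloride channel, at 173, 135 and 74.3 CPM in CB and 0, 3.78 and 4.16 CPM in CBE (5.20 ± 0.42), and *Car2*, the cytosolic carbonic anhydrase, at 43.3, 37.6 and 54.0 CPM in CB and 3.56, 1.89 and 8.32 CPM in CBE (3.26 ± 0.53). These 3 were the members higher in CB. In CBE, *Slc6a6*, the taurine transporter, was at 3229 ± 702 CPM in CBE and 100.5 ± 25.6 CPM in CB (-4.94 ± 0.15), *Slc13a4*, a sulfate transporter, at 459 ± 71.5 CPM in CBE and 8.69 ± 7.86 CPM in CB (-5.76 ± 0.29), and *Kcnj13*, an inward rectifier, at 109.6 ± 27.7 CPM in CBE and 14.6 ± 6.63 CPM in CB (-2.74 ± 0.31). *Kcnma1* (-2.38 ± 0.63) and *Slc6a13*, a GABA transporter, were the other 2 of the 5 higher in CBE. *Car14*, a membrane carbonic anhydrase, was at 57.7 ± 9.38 CPM in CB and 121 ± 19.6 CPM in CBE with a difference of -0.99 ± 0.23, and *Slc4a5*, the cotransporter NBCe2, at 1168 ± 59.8 CPM in CB and 632 ± 17.2 CPM in CBE (0.93 ± 0.12), both without overlap and just short of the threshold. *Car14* was counted in CBE in a DESeq2 fit (-1.03), without untreated library 2 (-1.10) or 3 (-1.01) and in some other settings. *Slc4a5* was counted in CB after thinning to 1000 UMIs (1.00). *Slc16a1*, a lactate carrier, was counted in CBE without untreated library 1 (-1.39) or 3 (-1.13). The list had 14 tested of 29 genes and a median of -0.87. Its 3 members higher in CB and 5 higher in CBE stand beside 7.03% and 11.4% of all tested genes. Over all 29, the mean was higher in CBE for 20 and in CB for 8, and 1 had no UMIs in either label.

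Junction genes differed in type. The cadherins *Cdh2* (176, 174 and 159 CPM in CB and 42.7, 28.4 and 45.8 CPM in CBE, 2.19 ± 0.24) and *Cdh3* (456, 152 and 192 CPM in CB and 42.7, 28.4 and 41.6 CPM in CBE, 2.72 ± 0.23) were higher in CB, and *Cdh4* (-4.81 ± 0.38) and *Cdh6* (-2.97 ± 0.27) in CBE. Of the tight junction genes, 4 were higher in CBE, and the blood-aqueous barrier is known to lie in the nonpigmented layer. *Tjp1*, the scaffold ZO-1, was at 66.4, 75.2 and 54.0 CPM in CB and 267, 274 and 322 CPM in CBE (-2.06 ± 0.20), and *Cldn19* at 5.78, 9.90 and 3.38 CPM in CB and 60.5, 87.0 and 77.0 CPM in CBE (-3.37 ± 0.40). *Ocln* and *Cldn2* had 2 UMIs and 1 UMI in CB against 42 and 133 in CBE. The catenin gene *Ctnnb1* was level, at 0.07 ± 0.25. Of 13 tested of 22 genes, 2 were higher in CB and 6 in CBE, beside 7.03% and 11.4% of all tested genes. The median of the 13 was -0.63. Over all 22, the mean was higher in CB for 10 and in CBE for 12.

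Among secreted signals, *Bmp4* (471 ± 181 CPM in CBE and 62.9 ± 19.5 CPM in CB) and *Bmp7* (250.1 ± 21.8 CPM in CBE and 21.7 ± 6.64 CPM in CB) were higher in CBE, with differences of -2.78 ± 0.22 and -3.50 ± 0.25. *Ptgds*, the prostaglandin D synthase, was at 999, 589.8 and 489 CPM in CB and 10776, 4874 and 4424 CPM in CBE (-3.18 ± 0.11), and its lowest CBE library lay far above its highest CB library. *Wnt5a* (-2.28 ± 0.68) and *Igfbp2* (-1.54 ± 0.53) had the same direction. In CB, *Vegfa* was at 208, 101 and 122 CPM in CB and 17.8, 22.7 and 22.9 CPM in CBE (2.65 ± 0.28), *Igfbp5* at 1220.4 ± 116 CPM in CB and 22.2 ± 11.5 CPM in CBE, the WNT receptor gene *Fzd4* at 101 ± 6.19 CPM in CB and 27.3 ± 16.5 CPM in CBE (2.06 ± 0.29) and the ligand gene *Wnt2b* at 38.5 ± 21.9 CPM in CB and 6.62 ± 5.75 CPM in CBE (2.46 ± 0.50). *Sfrp1*, a WNT inhibitor, and *Notch2* completed the 6 of 15 tested genes that were higher in CB (1.28 ± 0.24 and 1.26 ± 0.18). In CBE 5 were higher, and the median of the 15 was 0.85. Of all tested genes, 7.03% were higher in CB and 11.4% in CBE. Over all 22 list genes in the files, the mean was higher in CB for 9 and in CBE for 10, and 3 had no UMIs in either label. *Wnt2b* was no longer counted with shared barcodes left out (2.37, with overlap), and *Dkk3* was counted in CBE without untreated library 1 (-1.11). Of 13 genes tested with shared barcodes left out, 5 were higher in CB and 3 in CBE. Of 14 tested without untreated library 1, 6 were higher in each label.

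Of 20 retinoid genes, 7 were tested, with a median of 0.13. *Rlbp1*, the retinaldehyde binding protein CRALBP, was at 80.9, 49.5 and 81.0 CPM in CB and 10.7, 13.2 and 4.16 CPM in CBE (2.85 ± 0.40), and *Stra6*, the retinol uptake receptor, had 27 UMIs in CB and 3 in CBE. They were among the 3 members higher in CB, with 2 higher in CBE, beside 7.03% and 11.4% of all tested genes. With shared barcodes left out, and likewise without untreated library 1, 6 members were tested and 2 were higher in each label. Over all 8 libraries 8 were tested, with 2 higher in CB and 1 in CBE. *Aldh1a1*, which makes retinoic acid, was at 62.8 ± 15.0 CPM in CBE and 4.21 ± 4.34 CPM in CB (-3.76 ± 0.50), and *Dhrs3* had a difference of -1.12 ± 0.24, and was not counted without untreated library 2, where it lay just under the threshold. The visual cycle genes *Rpe65* and *Lrat* had 0 and 0 UMIs in CB and 1 and 0 in CBE, below what this depth can compare. A sum without UMIs allows a level of up to 2.61 CPM in CB and 2.32 CPM in CBE.

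Among receptors of drugs and hormones, 6 of 31 genes in the files had counts enough for the fit. Of these, 3 were higher in CB and 1 in CBE, beside 7.03% and 11.4% of all tested genes. Over all 31, the mean was higher in CB for 14 and in CBE for 13, so the list as a whole was split evenly. *Vipr2* (35.1 ± 8.28 CPM in CB and 8.16 ± 2.28 CPM in CBE, 2.18 ± 0.50) and *Npr3* (67.7 ± 13.1 CPM in CB and 27.3 ± 17.3 CPM in CBE, 1.44 ± 0.32), receptors of a vasodilator peptide and of natriuretic peptides, were among those higher in CB. Without untreated library 2, or with shared barcodes left out, *Npr3* was not counted (0.97 and 1.48). The median of the 6 was 1.23. Without untreated library 1, 2 of 5 tested genes were higher in CB and 1 in CBE. With shared barcodes left out, 2 of 6 were higher in CB and 1 in CBE. *Adora1*, an adenosine receptor, was higher in CBE, at 62.3 ± 18.1 CPM in CBE and 6.65 ± 2.86 CPM in CB (-3.00 ± 0.44), and was at 0.404 CPM in iris pigment epithelium. The muscle receptors *Adra1a* (59.8 ± 28.4 CPM in CB and 30.8 ± 7.41 CPM in CBE) and *Chrm2* (19.2 ± 9.83 CPM in CB and 30.5 ± 14.2 CPM in CBE) were not counted. Without untreated library 3, *Adra1a* was counted in CB (1.25) and *Chrm2* in CBE (-1.16). 

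Antioxidant genes were higher in CBE in 3 of 8 tested of 12, beside 11.4% of all tested genes, with a median of -0.48. The 3 were *Gpx3* (-4.65 ± 0.28), *Sod3* (76.2 ± 2.98 CPM in CBE and 4.07 ± 1.64 CPM in CB, -4.00 ± 0.44) and *Cp*, ceruloplasmin (479.6 ± 57.2 CPM in CBE and 10.9 ± 8.48 CPM in CB, -5.21 ± 0.28). *Sod1* and *Gpx4* were level, at -0.05 ± 0.41 and 0.13 ± 0.25. Of 10 secretory peptide genes in the files, *Pam*, an enzyme that amidates peptides, was the 1 tested, at 287 ± 57.7 CPM in CBE and 71.0 ± 24.1 CPM in CB (-1.99 ± 0.21).

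The 12 largest differences in CB above 50 CPM included genes of other functions. *Cacng4*, an auxiliary subunit of AMPA receptors, was at 1092, 901 and 969 CPM in CB and 7.12, 1.89 and 12.5 CPM in CBE (7.10 ± 0.26). *Pde5a*, the cGMP phosphodiesterase that sildenafil blocks, was at 1193, 956 and 1070.0 CPM in CB and 39.1, 13.2 and 22.9 CPM in CBE (5.56 ± 0.21), and *Prdm16*, a zinc finger regulator, at 321, 275 and 263 CPM in CB and 7.12, 1.89 and 6.24 CPM in CBE (5.87 ± 0.32). *Gabra5*, a GABA receptor subunit, was at 290.2 ± 61.8 CPM in CB and 2.71 ± 3.20 CPM in CBE, *Fam20a*, a pseudokinase of the secretory pathway, at 334 ± 83.8 CPM in CB and 2.58 ± 2.87 CPM in CBE, and *Slc38a11*, an amino acid transporter, at 306 ± 24.7 CPM in CB and 4.66 ± 4.25 CPM in CBE. *Cdh22*, *Serpina3n* and *Prima1*, which anchors acetylcholinesterase, were at 242 CPM, 66.6 CPM and 93.2 CPM in CB, with 1 or 2 UMIs in CBE. *Slc4a4*, *Thsd4* and *Igfbp5* complete the 12.

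Of the 12 largest fitted differences in CBE, 10 had 0 UMIs in CB, where the order depends on the fit. *Zfp365*, *Insrr*, a relative of the insulin receptor, and *Wnk4*, a kinase that regulates ion carriers, were at least 47.4-, 36.8- and 22.8-fold higher. *Ap1s3*, *Galnt12*, *Lin7a*, *Gpr165* and *Mecomos* were at least 32.0-, 23.7-, 20.7-, 23.4- and 19.0-fold higher, and *Zic2* is given above. *Slc6a13* was at 0, 0 and 3.38 CPM in CB and 541, 287 and 399 CPM in CBE. *Rmst*, a long noncoding RNA of neural tissue, was at 11.6, 3.96 and 6.75 CPM in CB and 1295, 1119 and 1464 CPM in CBE (-7.39 ± 0.24), and had a UMI in 94.9% of CBE nuclei and 1.73% of CB nuclei.

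The 2 epithelial layers of the iris differed by some of the genes that differed between CB and CBE. Of the genes tested in both comparisons, 4.31% were higher in the dilator than in iris pigment epithelium and 7.51% were higher in iris pigment epithelium, by the same rule. Of the 548 of these that were higher in CB, 139 (25.4%) were among the 337 higher in the dilator and 35 (6.39%) among the 588 higher in iris pigment epithelium. Of the 870 that were higher in CBE, 376 (43.2%) were higher in iris pigment epithelium and 46 (5.29%) in the dilator. Without untreated library 1 in the sets, the shares were 23.5% and 5.50% for CB and 38.9% and 5.36% for CBE, and with shared barcodes left out 25.9% and 6.39% and 43.9% and 5.45%. No test was made of these overlaps, which rest on the same joint clustering. *Otx2* was at 339 ± 7.60 CPM in the dilator and 11.2 ± 0.991 CPM in iris pigment epithelium, and *Zic1* at 13.9 ± 3.99 CPM and 764 ± 61.8 CPM. *Slc4a4* was at 714 ± 24.8 CPM and 64.9 ± 5.51 CPM, so that its level in CB was also far above that of the dilator. *Col18a1*, at 93.8 ± 2.95 CPM, was likewise lower in iris pigment epithelium than in CBE.

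Over all 22873 genes, Pearson's r of log2(CPM + 1) between CB and dilator was 0.899, 0.922 and 0.902 in the 3 libraries, and between CB and iris pigment epithelium 0.889, 0.914 and 0.896. For CBE, r was 0.904, 0.942 and 0.935 with iris pigment epithelium and 0.874, 0.904 and 0.899 with the dilator. Between CB and CBE it was 0.844, 0.882 and 0.864. Among these pairs, r of CB was highest with the dilator in each library, by a small margin. For CBE it was highest with iris pigment epithelium in each library. Other cell types were not compared. Over the 7856 tested genes only, the mean r was 0.777 for CB with the dilator and 0.699 for CB with iris pigment epithelium, and 0.814 for CBE with iris pigment epithelium and 0.634 with the dilator. The values are across genes, which are not independent, and the sums of a library share its free RNA, while the iris sums hold more UMIs.

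In the 5 libraries of treated eyes, most of the counted differences had the same direction. Of the 552 genes higher in CB, 464 (84.1%) had a higher CPM in CB in 5 of 5 treated libraries, and 248 differed more than 2-fold in 5 of 5. Of the 893 genes higher in CBE, 769 (86.1%) kept their direction in 5 of 5 and 489 differed more than 2-fold. Without dilated library 1, whose barcodes untreated library 1 shares, 466 and 771 had the same direction in 4 of 4. The labels were assigned jointly over all libraries, so this is a description and no independent test. *Slc4a4* ranged over 5058 to 6923 CPM in CB and 32.0 to 336 CPM in CBE, and *Zic1* over 2.14 to 20.1 and 606 to 757 CPM. *Dct* ranged over 4202 to 10138 CPM in CB and 359 to 2613 CPM in CBE. *Tyrp1* was higher in CB in 3 and in CBE in 2 of the 5.

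**Figure D5:**
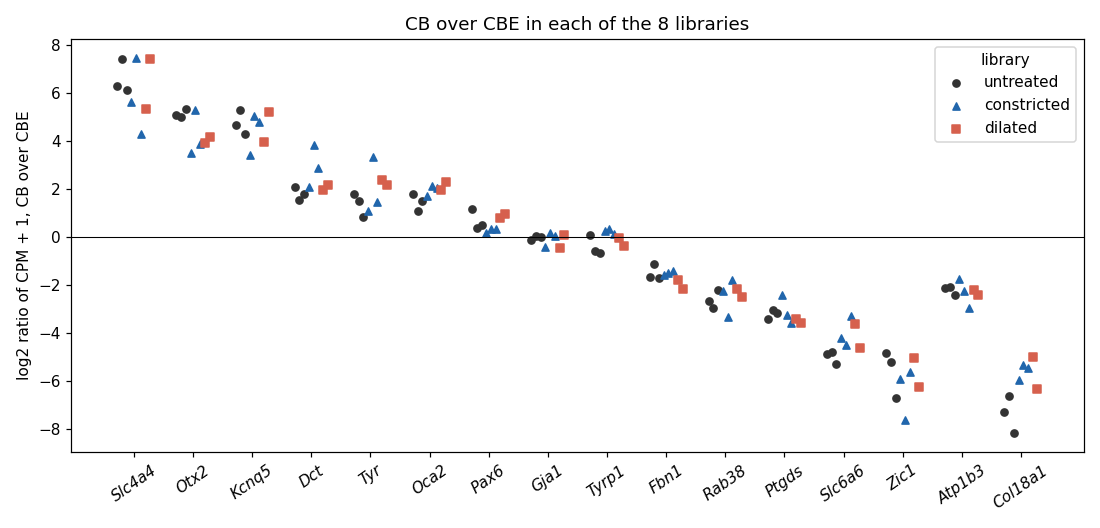
Log2 ratio of CPM + 1, CB over CBE, of 16 genes in each of the 8 libraries, with black circles for untreated, blue triangles for constricted and red squares for dilated libraries. The genes from *Slc4a4* to *Pax6* lie above 0 and those from *Fbn1* to *Col18a1* below 0 in all 8 libraries, while *Gja1* and *Tyrp1* lie on both sides.

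CBE nuclei held slightly more RNA and more mitochondrial transcripts than CB nuclei. The median number of UMIs per nucleus was higher in CBE in 8 of 8 libraries, by 214 ± 110 (SD of the differences), and the median number of genes by 148 ± 43.4. The median mitochondrial share was 0.104% in CBE and 0.0414% in CB, a mean difference of 0.0623 ± 0.0167 percentage points, again in 8 of 8 libraries. Each exact two-sided sign-flip permutation test over the 8 libraries gave p = 0.00781, the smallest p that 8 pairs allow, and 0.00781 after Benjamini-Hochberg adjustment over the 3 measures. These nuclei were labelled by clustering the same counts, so the p-values describe the labels as given. Untreated library 1 and dilated library 1 shared 63 cell barcodes, so the 8 pairs are not fully separate. In the 3 untreated libraries the mean mitochondrial share was 0.0620 ± 0.0145% in CB and 0.161 ± 0.0287% in CBE. The part that these differences have in the gene comparisons was not tested. Thinning each nucleus to 1000 UMIs evens the depth but not the mitochondrial share. It kept 87, 162 and 93 CB and 78, 156 and 135 CBE nuclei. Of the 2997 genes tested then, 290 were higher in CB and 437 in CBE.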

How the data were processed

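The authors made 10x Genomics 3' libraries of nuclei, in 5 batches and 2 sequencing runs. Reads were assigned to genes, introns included, on mm10 with Cell Ranger 3.1.0 (version from the submitters' processing notes), nuclei above 1% mitochondrial transcripts or outside 500 to 6000 transcripts (in the files, genes per nucleus lie in that range) were removed, and the rest were clustered in Seurat. The deposited files hold, for each nucleus, raw UMI counts of the genes, its mitochondrial percent and its cell type. These types were used as deposited. The counts of a nucleus added up to its deposited total for 1225 of 1479, 5985 of 6392 and 6059 of 6494 nuclei of untreated libraries 1, 2 and 3. Medians of UMIs and genes per nucleus are of the deposited totals.

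Counts of the CB and CBE nuclei were summed per library. edgeR 4.0.16 (R 4.3.3) was run with TMM normalization, filterByExpr and a quasi-likelihood fit with a term for each library, since both sums of a library come from the same irises. Deviations of CB and CBE sums from their means correlated at 0.241, 0.125 and 0.093 within untreated libraries 1, 2 and 3. Between libraries they correlated at -0.165 to 0.087, so the value within library 3 was close to the highest between libraries. No p-value is given for genes of CB against CBE, as the clusters were made on these counts. Named genes are members of 23 lists and the 12 largest counted differences per direction at 50 CPM or more, without clone names. The comparison, lists and rule were chosen with earlier results of these data known. The fit was tested on simulated counts. Scrublet (scanpy 1.11.5) called 158 of 14365 untreated nuclei doublets, 1 in CB and 8 in CBE. They were kept. A filter on low counts keeps genes that are high in 1 label, so medians over tested genes are descriptions. *Sox2*, *Cpamd8*, *Adora3*, *Avpr1a*, *Gjd2*, *Cldn3*, *Cldn4*, *Fgf15*, *Pcsk1*, *Trf*, *Itgam* and *Gnat1* were not analysed here, and the values of a few other named genes, included in the counts, are not reported here. Gene positions are from GENCODE vM21 (GRCm38), which matched 22498 symbols. Barcodes are compared without the library suffix. Counts rest on few UMIs for weak genes. SDs are over libraries, and for weak genes they also hold counting error. The p-values rest on the same direction in all 8 libraries and do not measure the spread between pools. Alternatives covered the normalization, filters, thresholds, block, doublets, depth and each library.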

Additional observations from a re-analysis of the deposited data

Results flagged for a closer look

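*Tmem53* was counted as higher in CBE in the untreated libraries and was higher in CB in all 3 constricted and both dilated libraries. It was at 11.6, 15.8 and 13.5 CPM in CB and 32.0, 49.2 and 27.0 CPM in CBE of the untreated libraries, from 16 and 48 UMIs. In constricted libraries 1 to 3 it was at 35.2, 27.8 and 35 CPM in CB and 18.6, 25.3 and 12.2 CPM in CBE, and in the dilated libraries at 26.2 and 30.9 CPM in CB and 24.9 and 17.2 CPM in CBE, so that the labels were close to level in constricted library 2 and dilated library 1. The mean log2 ratio of CPM + 1, CB over CBE, was 0.82 in the constricted and 0.44 in the dilated libraries. It was chosen after its values were seen, as the 1 gene of 1445 counted with the opposite sign in all 5 treated libraries, and the difference between the conditions was not tested.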

How the results depend on the processing

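Of 1878 values of 165 named genes under other settings, 0 reversed, 22 fell below the rule and 29 passed it. Beside 552 genes higher in CB and 893 in CBE, the counts were 914 and 1704 without a filter on low counts, 290 and 437 after thinning to 1000 UMIs, and 232 and 456 above a log2 difference of 2. They were 895 in CB above 0.6 and 344 in CB over all 8 libraries, where more libraries must not overlap. Leaving out each replicate gave 513 to 586 in CB and 772 to 1015 in CBE. Without the replicate block they were 554 and 891, and with called doublets left out 558 and 889, and the block changed the count for no named gene.

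At a log2 difference above 2, 0 pigment genes were higher in CB. Their median of 0.53 was 1.10 over all 8 libraries and 0.94 after thinning, and the median of the nonpigmented lists (-4.92) was -3.87 without a filter, -4.45 over all 8 libraries and -5.62 after thinning; it was -5.40 to -4.82 with each replicate left out. Over tested genes only, mean r was 0.571 for CB with CBE, 0.777 and 0.699 for CB with dilator and iris pigment epithelium, and 0.634 and 0.814 for CBE. Without untreated library 1 the same means over all genes were 0.873, 0.912 and 0.905, and 0.902 and 0.938. Beside the genes named above as not counted over all 8 libraries, *Aqp1*, *Car2*, *Dhrs3*, *Npr3*, *Wnt2b*, *Wnt5a* and *Sfrp1* were not counted there either. *Opcml* was counted in CBE without untreated library 1, without untreated library 2 (-1.70) and with called doublets left out (-1.69). The causes were not tested. Leaving out shared barcodes was chosen after seeing the data. Genes with few UMIs in these 719 nuclei cannot be compared.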
